A study of Rattus norvegicus with 7 samples.

Results

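The genes described here mark B cells, the antibody-producing lymphocytes, and were read in RNA from crypt preparations of the rat colon. They were chosen by symbol, with their earlier values in these data known: Cd79b, Cd79a, Ms4a1, Cd22, Cd37, Bank1, Faim3 and Blk. Of these 8 symbols 7 were in the gene table, among 16468 genes in all, and Cd79a was not analysed here. Crypts, the epithelial pits of the colon wall, were isolated at the proximal and the distal end of the organ from Sprague Dawley rats, which are outbred, aged 14 weeks and with no treatment named in the labels. Each region gave 1 RNA library, in which the material of 7 rats was pooled, so no spread between rats or preparations can be measured. Every difference below compares these 2 libraries and is a description with no test, and the B-cell genes were chosen for theirs. Where a pair of values is given without a region, the proximal one comes first.

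A B cell senses antigen through the B-cell receptor, a membrane antibody that signals through a pair of partner chains, CD79A and CD79B. Src-type kinases such as BLK and LYN start the signal, co-receptors such as CR2 strengthen it, and CD22 dampens it. In the intestine, B cells gather in lymphoid follicles of the wall, plasma cells lie in the lamina propria between the crypts, and lymphocytes inside the epithelium itself are mostly T cells. In RNA from a mixed preparation, fewer cells of a type and less RNA per cell cannot be told apart.

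The preparations read as epithelium in both regions. Of 18 epithelial markers, 16 were found in the table by their listed symbol. Of these, 15 were measured, that is, reached 1 FPKM (fragments adjusted for transcript length and sequencing depth) in either library. Their summed level was 11775 FPKM in proximal and 16172 FPKM in distal crypts, with Cldn3 listed at 0 in both. The Cldn3 entry lies on sequence that the genome build assigns to chromosome 12 without a position on it. Whether its 0 means absence was not tested. The listed Car2 was not found, and an entry named Ca2, at 1996 and 1417 FPKM, was not counted in these sums. Epcam, an adhesion protein of epithelial cells, stood at 1490 and 1990 FPKM. The highest of the B-cell genes in the proximal library, Cd37, was at 0.784% of the Epcam level there, and the lowest, Bank1, at 0.0755%, so these genes were low beside the epithelial marker even where they were higher.

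Promoter sequences were searched for features that the choice of genes did not use. PU.1 and EBF1 are transcription factors of the B lineage, and their recognition cores were searched as GAGGAA and CCCNNGGG on both strands, together with the octamer ATTTGCAT bound by Oct factors. The window was the 250 bases before the annotated start in the RefSeq promoter table of the GRCr8 build, which held 4 of the 7 genes, with Faim3 under its present symbol Fcmr. The PU.1 core lay in 3 of these 4 windows and in 23.3% of all 33469 promoters. The EBF core lay in that of Bank1 and in 10.8% of all promoters, and the octamer in none of the 4 and in 1.56% of all. The following 30-base stretches of GRCr8, shown to place these cores, hold one match each, in capitals and 5′ to 3′ along the gene:
Cd22 (chr1:95259777-95259806, minus strand): tcaggggcagaaGAGGAAgggggcgtggcc
Cd37 (chr1:104860844-104860873, minus strand): cacccccggaacTTCCTCtttctctgccct
Faim3 (chr13:44889639-44889668, plus strand): atagattatcatTTCCTCattttatgcccc
Bank1 (chr2:227473808-227473837, minus strand): caggccgcagtCCCCAGGGtaggaagcaag
In Cd37 and Faim3 the PU.1 core is on the opposite strand and reads TTCCTC. The Bank1 window held a second EBF core, CCCAGGGG, from 148 to 141 bases before the start, and no 2 matches overlapped. RefSeq places the outer end of each of these genes further upstream than the start used, by 52 bases for Fcmr, 293 for Bank1, 327 for Cd37 and 10700 for Cd22, so other starts exist. A match is a run of letters and no evidence of binding. Promoters of Cd79b, Ms4a1 and Blk were not analysed here.

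All 7 B-cell genes had a higher level in the proximal library. Their summed level was 42.6 FPKM in proximal and 4.03 FPKM in distal crypts, and the median level, taken in each library separately, was 6.32 and 0.209 FPKM. Of the 7, 6 were higher by 2-fold or more in proximal crypts on the log2(FPKM + 1) scale, on which 3.91% of 9847 measured genes were. Their median log2 ratio of distal over proximal on that scale was -2.12, against 0.094 over all measured genes. The authors' deposited table called all 7 higher in the proximal library, beside 2.69% of the 10099 genes it tested. Because the genes were chosen on this contrast, these counts describe the choice and support nothing further.

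Depth limits how small a distal level can be read. For a gene of about 945 bases, 3 reads correspond to 0.425 FPKM in proximal and 0.339 FPKM in distal crypts, and to less for longer genes. These values serve as a floor, which is only approximate for single genes because their transcript lengths differ. In the distal library 4 of the 7 genes were below it, namely Ms4a1, Cd22, Bank1 and Blk, and no fold is given for them. In the proximal library all 7 were above it, from 2.65 times the floor for Bank1 to 27.5 times for Cd37. Where the authors' log2 fold change is given, the standard error is the one that its test statistic implies, which reflects the model behind that table and not variation between rats.

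**Figure D1:**
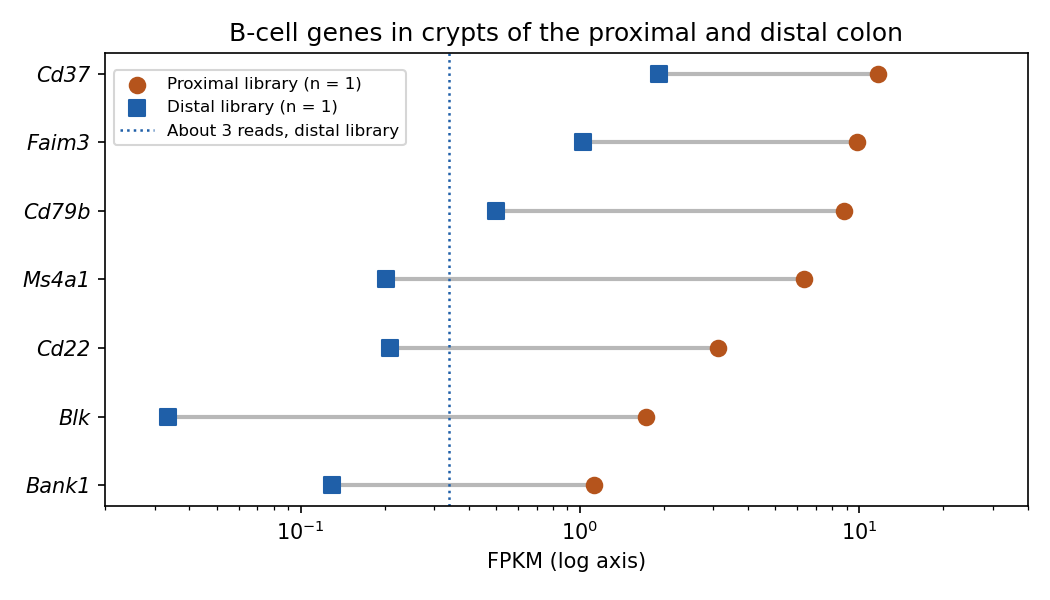
Level of each B-cell gene in FPKM (log axis) in the proximal library (circles) and the distal library (squares), 1 library each. The dotted line marks about 3 reads in the distal library for a gene of about 945 bases (0.339 FPKM). Longer genes reach 3 reads at lower values. Every circle lies to the right of its square, and 4 squares lie left of the line.

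The receptor itself was represented by Cd79b, the signalling chain of the B-cell receptor. Cd79b (rn4 build, chromosome 10, bases 95703129 to 95706275) stood at 8.80 FPKM in proximal and 0.502 FPKM in distal crypts, a 17.5-fold ratio. Its log2(FPKM + 1) ratio of -2.71 ranked 39th from the proximal end among the measured genes, the furthest of the 7. In the authors' deposited table its log2 fold change was -4.13, the implied standard error 0.75 and the q 3.51e-06.

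Ms4a1 encodes CD20, a membrane protein of mature B cells that plasma cells lose. It lies on chromosome 1 at 213763696 to 213770756 and stood at 6.32 FPKM in proximal and 0.202 FPKM in distal crypts. In the authors' deposited table its log2 fold change was -4.97, the implied standard error 0.96 and the q 1.86e-05. Its proximal level was 14.9 times the 3-read floor, while its distal level was below it.

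Cd22 and Blk act on the receptor from opposite sides, CD22 as an inhibitory lectin that binds sialic acid and BLK as a Src-type kinase. Cd22, on chromosome 1 at 85923707 to 85938567, stood at 3.13 FPKM in proximal and 0.209 FPKM in distal crypts. In the authors' deposited table Cd22 had a log2 fold change of -3.90, at a q of 1.15e-06 and an implied standard error of 0.68. Blk, on chromosome 15 at 42643871 to 42682793, stood at 1.72 FPKM in proximal and 0.0336 FPKM in distal crypts, the lowest distal level of the 7. Its log2 fold change of -5.68 in the authors' deposited table was the furthest from 0 of the 7 and had the largest implied standard error, 1.58 (q of 0.00923). The activating and the inhibitory gene were thus both higher in the proximal library.

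Bank1 encodes a scaffold protein that links the receptor to its kinases. It lies on chromosome 2 at 233471161 to 233747012 and had the lowest proximal level, 1.13 FPKM, against 0.129 FPKM in the distal library. Its log2(FPKM + 1) ratio of -0.91 left it just outside the 2-fold threshold, whereas Blk, at -1.39, was the nearest gene inside. On the plain ratio that the authors' deposited table uses, Bank1 stood at -3.12 on the log2 scale (implied standard error 0.82, q of 0.00462). The added 1 FPKM therefore sets on which side of the threshold Bank1 falls.

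Faim3 and Cd37 are the members with the highest levels and are not confined to B cells. Faim3, now called Fcmr, encodes the Fc receptor for IgM, and some T cells carry it too. On chromosome 13 at 43815827 to 43830062, it stood at 9.81 FPKM in proximal and 1.03 FPKM in distal crypts, 9.53-fold apart. Cd37 encodes a tetraspanin that organises membrane proteins of B cells and, at lower levels, of other leukocytes. It stood at 11.7 FPKM in proximal and 1.92 FPKM in distal crypts, 6.08-fold apart. Log2 fold changes in the authors' deposited table were -3.25 for Faim3 (implied standard error 0.63, q of 1.96e-05) and -2.60 for Cd37 (implied standard error 0.79, q of 0.0237). Cd37 was the closest to equal of the 7 in that table. Its entry, on chromosome 1 at 95694077 to 95715116, has the same locus as that of Tead2, so its value can hold reads of that gene. Tead2 stood at 0.689 FPKM in proximal and 0.988 FPKM in distal crypts, the opposite order.

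**Figure D2:**
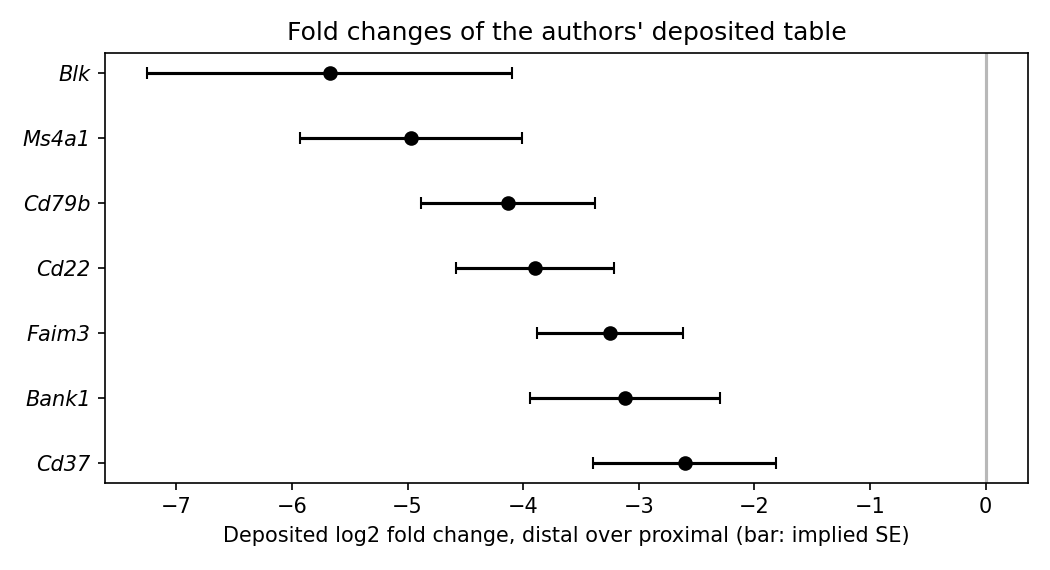
Log2 fold change of distal over proximal from the authors' deposited table for the 7 B-cell genes, with bars of 1 standard error as implied by the test statistic. Values run from -5.68 (Blk) to -2.60 (Cd37), and the bar of Blk is the widest. The distal levels of Ms4a1, Cd22, Bank1 and Blk were below the approximate 3-read floor.

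Other genes of the B cell were read from 3 further lists, made with earlier results of these data known. Together they held 58 genes in the table, of which 48 were measured: 18 were higher by 2-fold or more in proximal crypts and 3 in the distal library (3.91% and 3.71% of all measured genes). Their median log2(FPKM + 1) ratio was -0.76.

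Among 20 measured genes of B-cell receptor signalling, 4 were higher by 2-fold or more in proximal crypts and none in distal crypts, and the median log2 ratio was -0.60. Cr2, the complement receptor of B cells and follicular dendritic cells, stood at 3.16 FPKM in proximal and 0.0647 FPKM in distal crypts. Cr2 was called in the authors' deposited table, with a log2 fold change of -5.61 (implied standard error 0.94). Its distal level was below the approximate 3-read floor.

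The kinase genes Pik3cd, at 4.93 FPKM proximal and 1.204 FPKM distal (4.09-fold), and Prkcb, at 2.26 and 0.540 FPKM (4.17-fold), are active in many leukocytes. The adaptor Stap1, at 3.72 and 1.33 FPKM (2.80-fold), completed the group. Of the group, Pik3cd alone, besides Cr2, was called in the authors' deposited table, beside 2.69% of its tested genes in this direction. By contrast, Lyn, the main Src-type kinase of the receptor but also used elsewhere, stood at 13.5 and 14.9 FPKM. The adaptor Blnk stood at 28.1 and 31.6 FPKM and Cd81, a tetraspanin of many cell types, at 70.6 and 127 FPKM. Lyn, Blnk and Cd81 were each above every one of the chosen B-cell genes in both libraries. Which cells their RNA came from was not tested. With a minimum of 5 FPKM the median of this list was 0.17 over 9 genes, the opposite sign.

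Of 15 measured surface and homing genes, 8 were higher by 2-fold or more in proximal crypts and 1 in distal crypts, and the median was -1.13. Fcrla, an Fc receptor-like gene of B cells, stood at 2.94 FPKM in proximal crypts and was listed at 0 in distal crypts. Ccr6, a chemokine receptor of B cells and some T cells, stood at 2.30 and 0.0574 FPKM. Vpreb3, a gene of the B lineage, stood at 5.30 and 0.908 FPKM (5.83-fold). Cxcr5, the receptor that guides B cells into follicles, stood at 3.004 and 0.562 FPKM (5.35-fold). Cxcr4, a homing receptor of many leukocytes, stood at 8.36 and 2.25 FPKM (3.71-fold).

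Ltb, a lymphotoxin chain, stood at 7.39 FPKM proximal and 2.21 FPKM distal, and has a locus entry identical to those of Lta and Aif1. Its log2 fold change in the authors' deposited table was -1.74, with an implied standard error of 13.5. The last 2 of the 8 were the microbial sensing gene Cd180 (1.42 and 0.0816 FPKM) and Cd40, a receptor for T-cell help (1.34 and 0.0711 FPKM). Below 1 FPKM in both libraries, the integrin gene Itga4 (0.819 and 0.0744 FPKM) and the receptor gene P2ry10 (0.856 and 0.111 FPKM) were also called in the authors' deposited table. That table called 6 genes of the list, all higher in the proximal library, beside 2.69% of all genes it tested. It did not call Vpreb3, Ltb, Cxcr5 or Cd40. Higher in distal crypts by 2-fold or more was Cd24, at 501 and 1717 FPKM, which colon epithelium expresses too. Cd83, an activation marker of B cells and dendritic cells, read 11.04 FPKM proximal and 14.4 FPKM distal and did not reach 2-fold. Adding 0.1 FPKM in place of 1 gave this list a median of -1.97, and adding 5 FPKM gave -0.34.

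Of 13 measured transcription factors, 6 were higher by 2-fold or more in proximal and 2 in distal crypts, and the median was -0.52. Pou2af1, a coactivator of Oct factors in B cells, stood at 5.02 FPKM in proximal and 0.205 FPKM in distal crypts. Ciita, which switches on antigen presentation genes, stood at 1.93 and 0.122 FPKM. Ikzf3, a lymphoid zinc finger factor, stood at 1.71 and 0.255 FPKM, its relative Ikzf1 at 3.62 and 0.863 FPKM (4.19-fold) and Bcl11a at 4.14 and 1.06 FPKM (3.91-fold). Calls in the authors' deposited table covered these 5, beside 2.69% of its tested genes in this direction, and not Runx3, at 5.05 and 1.33 FPKM.

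Higher in the distal library were Id3, an inhibitor of E proteins, at 31.4 FPKM proximal and 65.0 FPKM distal (2.07-fold), and an entry named Tcf3, at 1.53 and 7.18 FPKM. That entry, on chromosome 4 at 105866419 to 106099850, shares its locus with another gene. It was counted among the factors by symbol alone. Whether it is the B-cell factor of that name was not checked, so its place in the distal counts is uncertain. The log2(FPKM + 1) ratio of Id3 was 1.03 as deposited and below the threshold, at 0.93 and 0.86, when the libraries were rescaled to equal medians or upper quartiles. Called in the authors' deposited table were Tcf3 and Foxp1 (2.73% of its tested genes were called in this direction), of which Foxp1 stood at 19.6 and 40.2 FPKM, just under 2-fold on the log2(FPKM + 1) scale. Foxp1 and Id3 are active in many cell types. Spib, a factor of B cells and of M cells in the epithelium, stood at 11.5 and 10.3 FPKM, and Ebf1 at 0.399 and 0.136 FPKM, below the measured range. Pax5 was not analysed here. With a minimum of 5 FPKM the median of the factors was 0.085 over 8 genes, the opposite sign.

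Genes of the germinal centre and the follicle, where B cells proliferate, had a median of -0.39 over 9 measured members, and of 0.011, the opposite sign, over the 2 that reached 5 FPKM. Besides Cr2, the cytokine receptor gene Il21r was higher by 2-fold or more in proximal crypts, at 3.37 and 0.465 FPKM (7.26-fold). Cxcl13, the chemokine that draws B cells into follicles, was the reverse, at 0.185 FPKM in proximal and 2.68 FPKM in distal crypts. Calls in the authors' deposited table covered all 3. Of its tested genes, 2.69% were called higher in proximal and 2.73% in distal crypts. The log2 fold change of Cxcl13 there was 3.86, with an implied standard error of 1.10, and its proximal level was below the approximate 3-read floor. Bcl6, a factor of germinal centre B cells that other cells share, stood at 4.69 and 4.83 FPKM.

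None of the 8 measured plasma cell genes was 2-fold apart, their median was 0.10 (-0.061 when upper quartiles were equalised and -0.036 when unmeasured genes were kept), and no call was made for them in the authors' deposited table. Most of these 8 serve protein secretion, which goblet cells share, such as Xbp1 at 196 and 199 FPKM. Of the more restricted genes, Mzb1 stood at 0.979 FPKM in proximal crypts and was listed at 0 in distal crypts, and Tnfrsf17 stood at 0.152 and 0 FPKM. Neither reached 1 FPKM or was called in the authors' deposited table, and Igj was not analysed here.

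In a list for M cells and the epithelium over follicles, the median over 8 measured genes was 0.18, and it was negative under 3 alternatives (between -0.302 and -0.081). Clu was the only one of the 8 higher by 2-fold or more in proximal crypts, at 5.25 and 1.59 FPKM, and it shares its locus with another gene. The chemokine gene Ccl20 stood at 19.6 and 10.2 FPKM. Higher in the distal library by less than 2-fold on the log2(FPKM + 1) scale were Marcksl1 (11.97 and 21.3 FPKM), Anxa5 (12.5 and 18.1 FPKM), Pglyrp1 (0.400 and 1.36 FPKM) and Ccl9 (0.474 and 1.12 FPKM). Gp2, a receptor for bacteria on M cells, did not reach 1 FPKM, at 0.0940 and 0.862 FPKM. None of the list was called in the authors' deposited table.

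**Figure D3:**
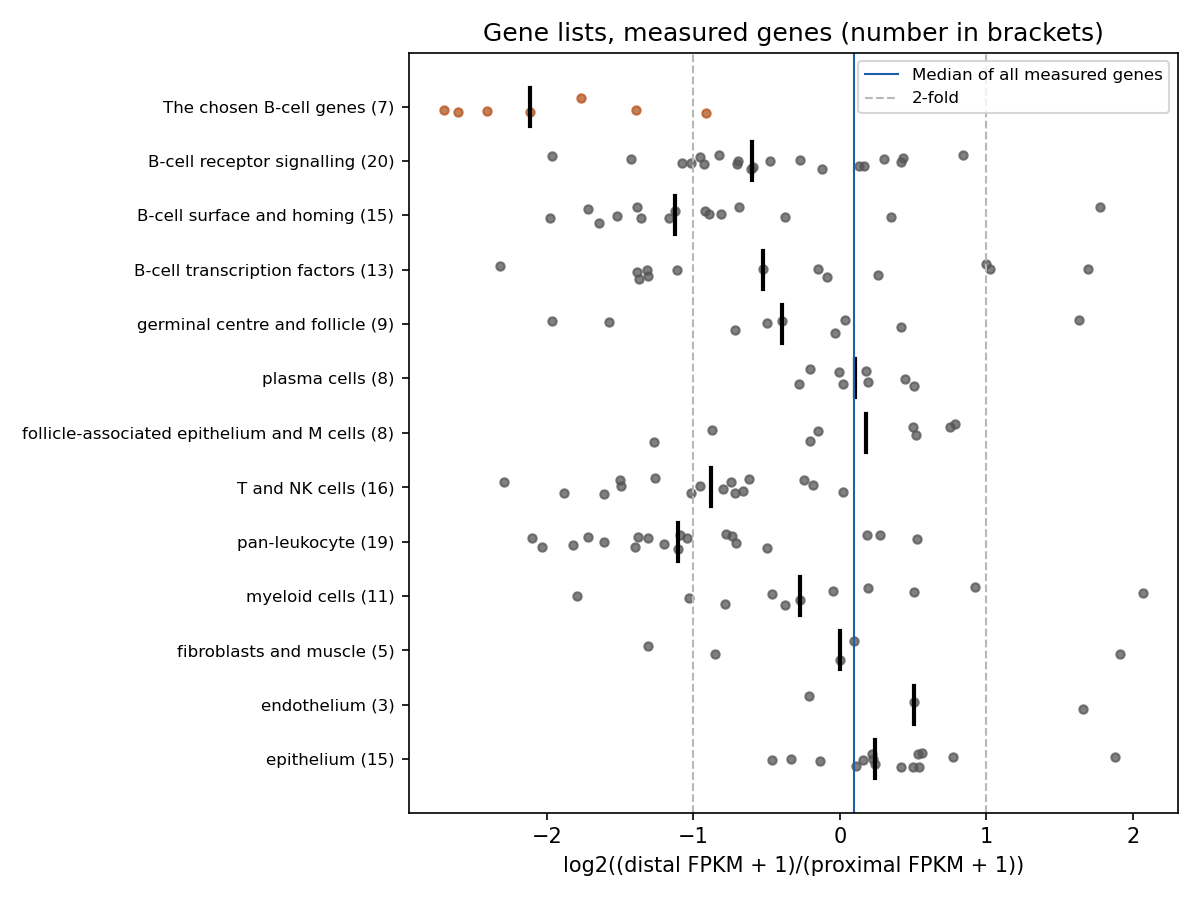
Log2((distal FPKM + 1)/(proximal FPKM + 1)) of each measured gene (points) in 13 gene lists, with the list median (black bar), the median of all measured genes (line at 0.094) and 2-fold differences (dashed). The chosen B-cell genes lie between -2.71 and -0.91, and the pan-leukocyte, T and NK cell and B-cell surface lists have medians of -1.11, -0.88 and -1.13.

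Many markers of leukocytes in general and of T and NK cells were also lower in the distal library, and their part in the result was not tested. Of 19 measured genes shared by leukocytes, 12 were higher by 2-fold or more in proximal crypts and none in distal crypts. Over all measured genes the shares were 3.91% and 3.71%. The median of the 19 was -1.11 and their summed levels were 174 and 98.2 FPKM. When 0.1 FPKM was added in place of 1 that median became -1.78, and when 5 FPKM was added, -0.501. Ptprc, which encodes the leukocyte antigen CD45, stood at 8.97 FPKM proximal and 1.44 FPKM distal (6.24-fold). Arhgdib stood at 23.5 and 4.72 FPKM (4.99-fold), Cd53 at 6.52 and 1.12 FPKM (5.80-fold), Coro1a at 20.1 and 5.40 FPKM (3.71-fold), Lsp1 at 7.14 and 1.67 FPKM (4.27-fold) and Laptm5 at 12.5 and 4.12 FPKM (3.03-fold). Calls in the authors' deposited table covered 10 of the 19, all higher in the proximal library, beside 2.69% of all genes it tested. Rac2, a leukocyte GTPase, did not share this order, at 42.9 and 52.2 FPKM.

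Of 16 measured genes of T and NK cells, 7 were higher by 2-fold or more in proximal crypts, beside 3.91% of all measured genes. The median of the 16 was -0.88, and the summed levels over 25 genes were 129 and 44.2 FPKM. Adding 0.1 or 5 FPKM in place of 1 changed this median to -1.56 or -0.39, and the 7 genes that reached 5 FPKM had a median of -1.49. Among those past 2-fold were the cytotoxic granule genes Gzma, at 26.3 and 4.58 FPKM (5.76-fold), Gzmb, at 5.81 and 1.42 FPKM (4.09-fold), and Nkg7, at 11.4 and 2.36 FPKM (4.83-fold), and Cd7, at 44.6 and 13.9 FPKM (3.20-fold). Klrd1 stood at 2.68 and 0.298 FPKM, Cd96 at 2.36 and 0.401 FPKM (5.90-fold) and Zap70 at 1.66 and 0.316 FPKM. Calls in the authors' deposited table covered these 7, beside 2.69% of its tested genes in this direction. The signalling chains of the T-cell receptor differed among themselves: Cd3d stood at 1.05 and 0.294 FPKM, Cd247 at 2.32 and 0.713 FPKM, Cd3e at 1.40 and 1.03 FPKM and Cd3g at 6.37 and 6.49 FPKM, and none of these 4 was called. Whether the T-cell list differs from the B-cell genes was not tested, since each region had 1 library.

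Myeloid markers had a median of -0.27 over 11 measured members and summed levels over 23 genes of 153 FPKM proximal and 151 FPKM distal. Most of both sums was Cd14, at 101 FPKM proximal and 116 FPKM distal, so the sums say little about the other genes. Lyz2, which shares its locus with another gene, stood at 11.1 and 2.50 FPKM and Tyrobp at 10.9 and 4.84 FPKM, while Cd68, a macrophage marker, stood at 2.98 and 2.30 FPKM. S100a8, a granulocyte gene, was listed at 0 in the proximal library and stood at 3.19 FPKM in the distal library. Cd163, Emr1, Marco and Xcr1 were listed at 0 in both. The entries of Emr1 and Marco lie on sequence that the rn4 build assigns to no chromosome, and whether their 0 means absence was not tested. Only Lyz2 was called in the authors' deposited table.

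Of 15 genes of fibroblasts and muscle, 5 were measured, with summed levels of 22.7 FPKM proximal and 17.5 FPKM distal. Most of the proximal sum was Vim, an intermediate filament gene of mesenchymal cells and leukocytes, at 13.6 and 7.07 FPKM, above each B-cell gene in both libraries. Col1a1 stood at 0.170 and 0.445 FPKM, and Dcn and Lum were listed at 0 in both. Pdgfrb was higher in the proximal library (2.499 and 0.410 FPKM) and Des, a muscle filament gene, in the distal library (0.0398 and 2.91 FPKM), both called in the authors' deposited table. Of 11 endothelial genes 3 were measured, summing to 10.7 and 27.3 FPKM, with Pecam1 at 1.64 and 1.29 FPKM and Esam, called in the authors' deposited table, at 6.54 and 22.9 FPKM. Flt1 was listed at 0 in both libraries. Within the epithelial list, Tff3, a goblet cell peptide, was the only gene at least 2-fold apart, at 438 and 1618 FPKM, and was also called there.

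The genes nearest in pattern to the B-cell genes were found by distance on the log2(FPKM + 1) scale over the 2 libraries from the median point of the 7. With only 2 libraries this measures level and ratio alone. Among the genes reported, Lgals2, a galectin, had a distance of 0.124, at 6.90 FPKM proximal and 0.164 FPKM distal. It shares its locus with another gene and was not called in the authors' deposited table. Pou2af1 followed, at a distance of 0.282. The other 6 were MGC109340 (5.30 and 0 FPKM), the lymphocyte adaptor Sash3 (5.06 and 0.433 FPKM, 11.7-fold), the secreted hormone Stc1 (5.08 and 0 FPKM), Tmem154 (5.02 and 0.460 FPKM, 10.9-fold), Arhgap20 (8.61 and 0.261 FPKM) and the amino acid transporter gene Slc38a4 (4.47 and 0.126 FPKM). A place near the B-cell genes therefore was not confined to genes known from lymphocytes.

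**Figure D4:**
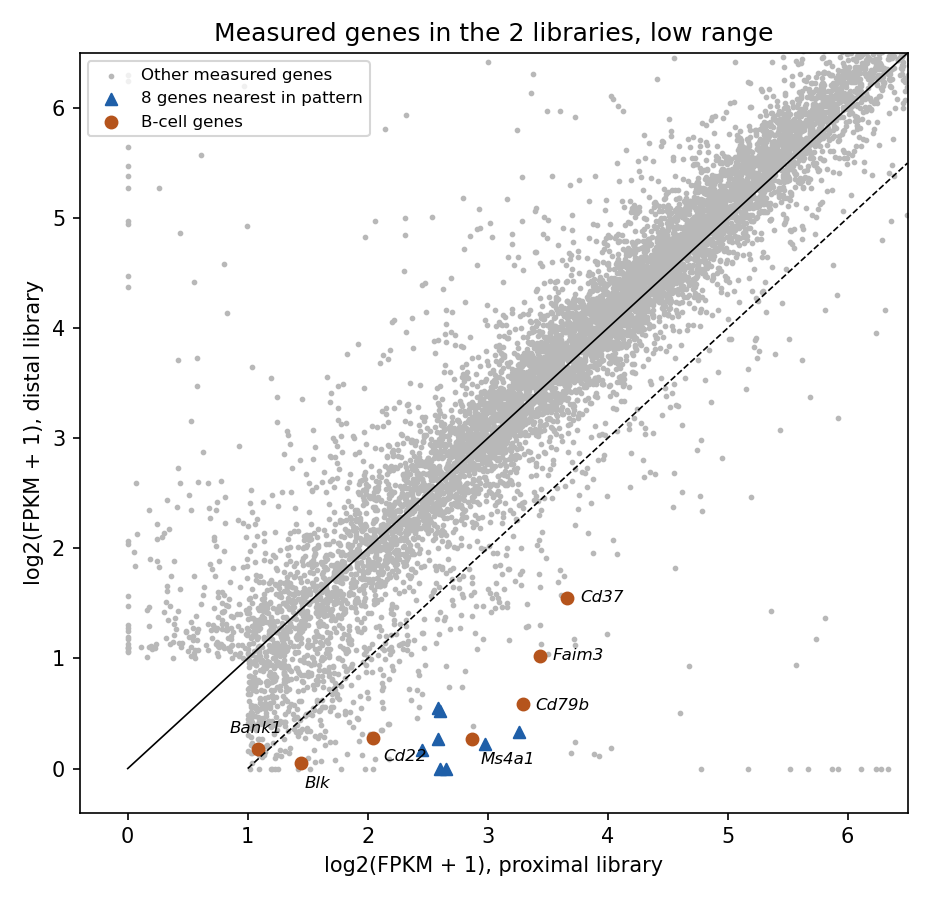
Measured genes by log2(FPKM + 1) in the proximal (x) and distal (y) library, 1 library each, drawn up to 6.5 on both axes, with the line of equal levels (solid) and of 2-fold higher proximal levels (dashed). The B-cell genes (circles) lie below the dashed line except Bank1, and the 8 nearest genes (triangles) lie near Ms4a1.

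Gene families of the members were read after the members' values had been seen, and put the same comparison beside relatives of other cell types. Among 6 other Src-type kinases, all measured, Fgr, a myeloid and lymphoid kinase, was higher by 2-fold or more in proximal crypts, at 3.60 FPKM proximal and 1.10 FPKM distal. The other 5 were less than 2-fold apart on the log2(FPKM + 1) scale, with Src at 4.60 and 4.66 FPKM, Yes1 at 40.2 and 30.8 FPKM, Lyn as given above, Lck at 7.17 and 3.98 FPKM and Fyn, a low gene, at 1.28 and 0.313 FPKM. Of 9 other tetraspanins, Cd53, a leukocyte gene, was higher by 2-fold or more in proximal crypts, as given above, and Cd9 in the distal library, at 69.9 and 372 FPKM (5.32-fold). The 7 that remained, such as Tspan8 at 1151 and 977 FPKM and Cd82 at 210 and 220 FPKM, were less than 2-fold apart. Cd37 and Cd53 had the lowest levels of the 10 tetraspanins in both libraries.

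Next to Ms4a1 in its family, Ms4a8a stood at 371 FPKM proximal and 384 FPKM distal, and Ms4a2, a chain of the IgE receptor of mast cells, at 4.004 and 1.46 FPKM (2.75-fold). Siglec10, a lectin related to Cd22 and also carried by B cells, stood at 1.36 FPKM in proximal and 0.0884 FPKM in distal crypts. Pigr, the epithelial receptor that carries IgA into the lumen and a relative of Faim3, read 1475 FPKM proximal and 2294 FPKM distal, a ratio of 1.56. This order was opposite to that of the B-cell genes, by less than 2-fold. Pigr was not called in the authors' deposited table (log2 fold change 0.637, implied standard error 0.933). Of the 16 epithelial markers found by their listed symbol, 12 were likewise higher in distal crypts and 3 lower.

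**Figure D5:**
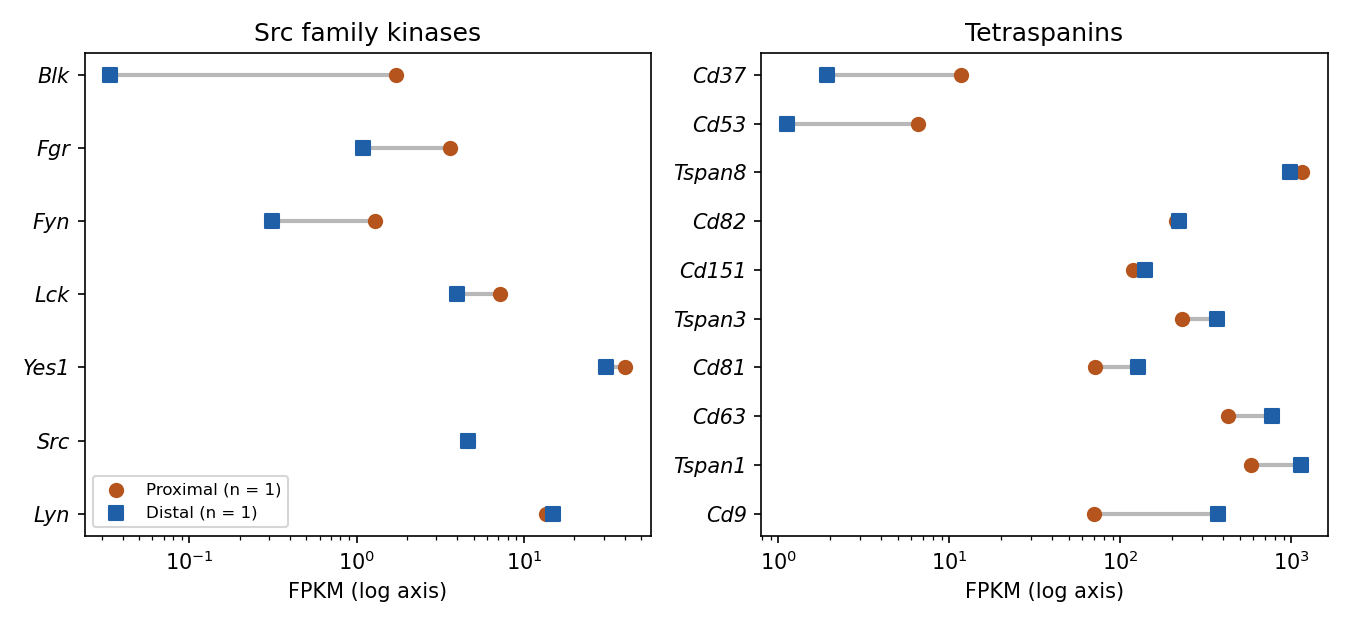
Level in FPKM (log axes) of Src family kinases (left) and tetraspanins (right) in the proximal (circles) and distal (squares) library, 1 library each. Blk, at 1.72 and 0.0336 FPKM, and Cd37, at 11.7 and 1.92 FPKM, stand at the top of their panels, which are ordered by the log2(FPKM + 1) ratio.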

How the data were processed

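The 2 RNA libraries were grouped by their sample titles, and the 5 chromatin libraries were not used. CASAVA, TopHat2 and the rn4 build are named without versions per the submitters' processing notes. From their form, the deposited values were read as FPKM, but the sources used here do not give the scaling between libraries. The p-value and q-value columns are those of the authors' deposited table, whose p-value matches a two-sided normal test on its statistic within 2.76e-06. The ratio of its log2 fold change to that statistic gave the implied standard error. Of 16492 rows, 23 marked as low in data or failed and 1 repeated row were left out. A gene was called measured when either library reached 1 FPKM, and ratios are log2((distal + 1)/(proximal + 1)). Positions add 1 to the deposited start.

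The single-read level was taken from olfactory receptor genes that carry the commonest p-value among genes at 0 in the other library (9 proximal and 4 distal genes), so it is approximate. Plain folds are given where both values reach the 3-read floor. Members and lists were chosen with earlier results of these data known. Named are all members, list genes at least 2-fold apart (up to 6 a list and direction) or called by the authors, set defining genes and the 8 genes nearest in pattern. A few genes of the lists are not reported here and were left out of list counts, families and nearest genes. Other genes of a list or family were added as examples after their values were seen. Python 3.11.15, pandas 2.3.3 and matplotlib 3.10.9 were used.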

Additional observations from a re-analysis of the deposited data

How the results depend on the processing

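The count of B-cell genes higher by 2-fold or more in proximal crypts was 6 of 7 and lay between 4 and 7 under the 7 alternatives: 7 with a pseudocount of 0.1 FPKM, 4 with 5 FPKM, 4 of 4 with a minimum of 5 FPKM, 5 of 6 without Cd37, which shares its locus, and 6 with no minimum or after either rescaling of the distal library. Their median log2 ratio of -2.12 moved to -3.38 with a pseudocount of 0.1 FPKM and to -1.12 with 5 FPKM, since these genes are low, and lay between -2.51 and -2.09 under the other 5. Over all measured genes the median was 0.094, -0.00031 and -0.063 as deposited, with medians equalised and with equal upper quartiles. Medians of other lists that changed sign were those of B-cell receptor signalling (0.17), B-cell factors (0.085), germinal centre and follicle genes (0.011 over 2 genes), M cells (-0.15) and fibroblasts and muscle (-0.85, 1 gene) with a minimum of 5 FPKM. With no minimum they were plasma cells (-0.036) and M cells (-0.081). Fibroblasts and muscle turned to -0.055 with medians equalised. With equal upper quartiles plasma cells turned to -0.061, M cells to -0.302 and fibroblasts and muscle to -0.094. The cause was not tested. No paired analysis was possible because each region has 1 library. The distal values of Ms4a1, Cd22, Bank1 and Blk lay below the approximate 3-read floor, which is lower for longer genes. The spread between rats is not measured.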

Other observations

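Genes near the B-cell genes on the rn4 map were read after the members' values had been seen. Within 100 kilobases of the 7 genes lay 38 other genes, of which 20 were measured, with a median log2(FPKM + 1) ratio of 0.043. Higher in the proximal library by at least 2-fold were Icam2, an adhesion molecule of leukocytes and endothelium, near Cd79b, at 2.28 FPKM proximal and 0.478 FPKM distal (4.76-fold), and Hrc, near Cd37, at 3.58 and 1.15 FPKM (3.12-fold). Ffar2, a receptor for short-chain fatty acids near Cd22, was higher in the distal library, at 11.4 and 29.0 FPKM (2.55-fold). None of these 3 was called in the authors' deposited table. Pigr, 12791 bases from Faim3, and Slc39a8, a metal transporter near Bank1 at 36.1 and 30.4 FPKM, were less than 2-fold apart.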
